A study of Homo sapiens with 12 samples.

Results

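The 9 genes described here encode enzymes of the hexosamine biosynthetic pathway and of glutamine metabolism: GFPT1, GFPT2, GNPNAT1, PGM3, UAP1 and OGT for hexosamine, and GLUL, GLUD1 and GPT2 for glutamine. They were taken by name from the 26475 gene symbols measured, and all 9 passed the filter on low counts that left 14582 genes for testing. RNA-seq was performed on MIAPaCa2, an established human pancreatic ductal adenocarcinoma cell line, in 4 groups of 3 libraries. The groups were untreated parental cells, parental cells given oxamate, untreated oxamate-resistant cells and oxamate-resistant cells given oxamate. Oxamate is a pyruvate analogue that inhibits lactate dehydrogenase A. The resistant cells were a polyclonal population of MIAPaCa2 that survived 10 mM sodium oxamate for 4 weeks, so 1 selected population stands for resistance. Nothing in the labels ties the 3 libraries of a group to separate cultures, and p-values then measure only the spread between these libraries, which may be technical.

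The hexosamine pathway diverts fructose-6-phosphate from glycolysis. GFPT1 and its paralog GFPT2 transfer the amide of glutamine to it in the committed step, and GNPNAT1, PGM3 and UAP1 then acetylate, isomerise and activate the sugar to UDP-GlcNAc. UDP-GlcNAc feeds N-glycans, hyaluronan, sialic acid precursors and the O-GlcNAc mark, which OGT attaches to nuclear and cytosolic proteins. Glutamine itself is made from glutamate by GLUL, and glutamate enters the tricarboxylic acid cycle as 2-oxoglutarate through GLUD1 or, with pyruvate as the amino acceptor, through GPT2. Pancreatic cancer cells are known to draw heavily on both routes.

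Promoter sequence is shown for the paralogs of the committed step, whose mRNAs differed between the oxamate-treated lines in opposite directions, and for OGT, the member with the largest changes. Each run is 120 bases of RefSeq sequence (GRCh38.p14), 5′ to 3′ on the gene's strand, that ends just before the outermost annotated start. Capitals mark matches to any of 6 motifs searched on both strands, and the last capital of the GFPT2 run begins a match that continues past its end.
GFPT1, chr2:69387255-69387374, minus strand: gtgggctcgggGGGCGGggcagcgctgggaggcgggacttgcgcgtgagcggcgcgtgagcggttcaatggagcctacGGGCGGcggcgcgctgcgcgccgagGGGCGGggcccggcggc
GFPT2, chr5:180353388-180353507, minus strand: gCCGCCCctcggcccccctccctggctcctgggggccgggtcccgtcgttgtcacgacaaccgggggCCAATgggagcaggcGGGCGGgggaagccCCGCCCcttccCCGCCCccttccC
OGT, chrX:71532963-71533082, plus strand: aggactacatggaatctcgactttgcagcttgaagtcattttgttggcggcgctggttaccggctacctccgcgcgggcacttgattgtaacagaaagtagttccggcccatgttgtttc
The motifs were the E-box CACGTG, the cyclic AMP element core TGACG, the C/EBP-ATF element TGATGNAA, the hypoxia element core ACGTG, the GC box GGGCGG and the CCAAT box. From 250 bases before the RefSeq start onward, the GFPT1 promoter held 4 GC boxes and 1 ACGTG, the GFPT2 promoter 5 GC boxes and 1 CCAAT box, and the OGT promoter 1 GC box that lies outside the run shown. An E-box can hold an ACGTG, so these motifs overlap. GC boxes occur in 42.6% of 35116 RefSeq promoters of this length, CCAAT boxes in 32%, ACGTG in 18.5%, TGACG in 21.2%, CACGTG in 6.34% and TGATGNAA in 3.14%. RefSeq promoters were matched for 8 of the 9 genes, and that of GPT2 was not analysed here. A CACGTG or TGATGNAA match was found in none of the windows of those 8 genes, a statement about these letters in these windows only.

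Levels are given as CPM, rounded RSEM expected counts scaled to library size after TMM normalization, which sets the libraries to a common scale under the assumption that most genes do not differ. Library totals ran from 59811522 to 114222169 expected counts in parental cells and from 46698729 to 55239600 in resistant cells, so every parental library was deeper than every resistant one. A count of 3 corresponded to 0.0283 to 0.0581 CPM. "Changed", "rose" and "fell" are used for an adjusted p under 0.05 in edgeR's quasi-likelihood test, after Benjamini-Hochberg adjustment for all 14582 genes, and a call over 1.5-fold means an unadjusted p under 0.05 with that fold change. The keratins KRT8, KRT18 and KRT19 and vimentin were high in every library, with KRT8 between 671.0 and 1601 CPM, while EPCAM, CDH1 and CDH2 did not exceed 3 counts. ZEB1 lay between 55.5 and 90.4 CPM and FN1 between 0.273 and 22.1 CPM. The 5 epithelial markers summed to 3279 to 3484 CPM in untreated parental and 1759 to 1791 CPM in untreated resistant libraries. The 4 mesenchymal markers summed to 9463 to 9583 and 6270 to 6446 CPM in the same groups. Of markers of other cell types, the leukocyte genes PTPRC and CD3E, the endothelial genes KDR and TEK and the fibroblast genes DCN and LUM were at 3 counts or fewer. LYZ reached 25.7, CD14 4.99, CDH5 0.957, VWF 0.286, PECAM1 0.159, COL1A2 950.0, COL1A1 2.03 and PDGFRB 0.217 CPM.

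**Figure D1:**
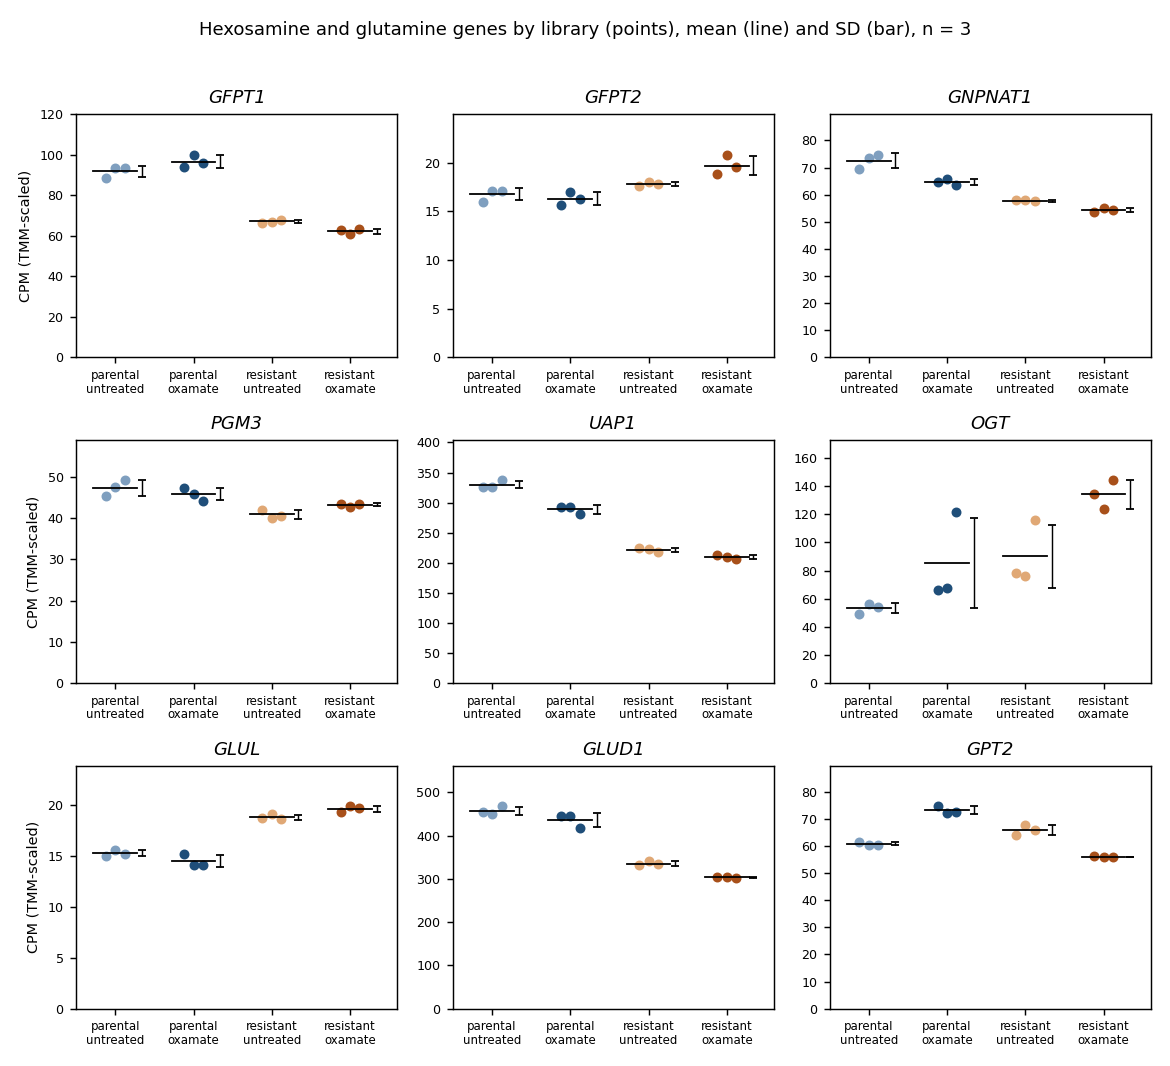
Levels of the 9 genes in CPM (vertical axes from 0) in the 4 groups, with each library as a point, the mean as a line and the SD as a bar (n = 3). On this scale GFPT1, UAP1 and GLUD1 in resistant cells lie below all parental libraries and GLUL above them, and OGT has 1 high library among the oxamate-treated parental and 1 among the untreated resistant libraries.

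Resistant cells held less mRNA for most of the route to UDP-GlcNAc and more for OGT and GLUL. Without oxamate 8 of the 9 genes differed between the lines, with GFPT1, GNPNAT1, PGM3, UAP1 and GLUD1 lower and OGT, GLUL and GPT2 higher in resistant cells, a direction that turned for PGM3 (0.01 on the log2 scale) when libraries were scaled by size alone. In bulk RNA, fewer cells with a transcript and less of it per cell cannot be told apart. Of all genes tested, 75.7% differed in this comparison, 38.4% higher and 37.3% lower, so a count of 8 of 9 is near the background. With oxamate all 9 differed against a background of 80.3%, with 3 higher, where all genes gave 40.6%, and 6 lower, where all genes gave 39.7%, of which PGM3 (0.24) and GNPNAT1 (0.07) turned with library size alone. The sizes were modest. OGT alone passed 1.5-fold without oxamate, where 23.4% of all genes did, and OGT and GFPT1 passed it with oxamate, where 34.3% did. The median log2 fold change over the 9 genes was -0.21 without and -0.25 with oxamate, beside 0.025 and 0.015 over all genes tested. The 3 resistant and 3 parental libraries did not overlap for any of the 9 genes in either comparison, which also held for 77.6% of all genes without and 81.2% with oxamate.

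**Figure D2:**
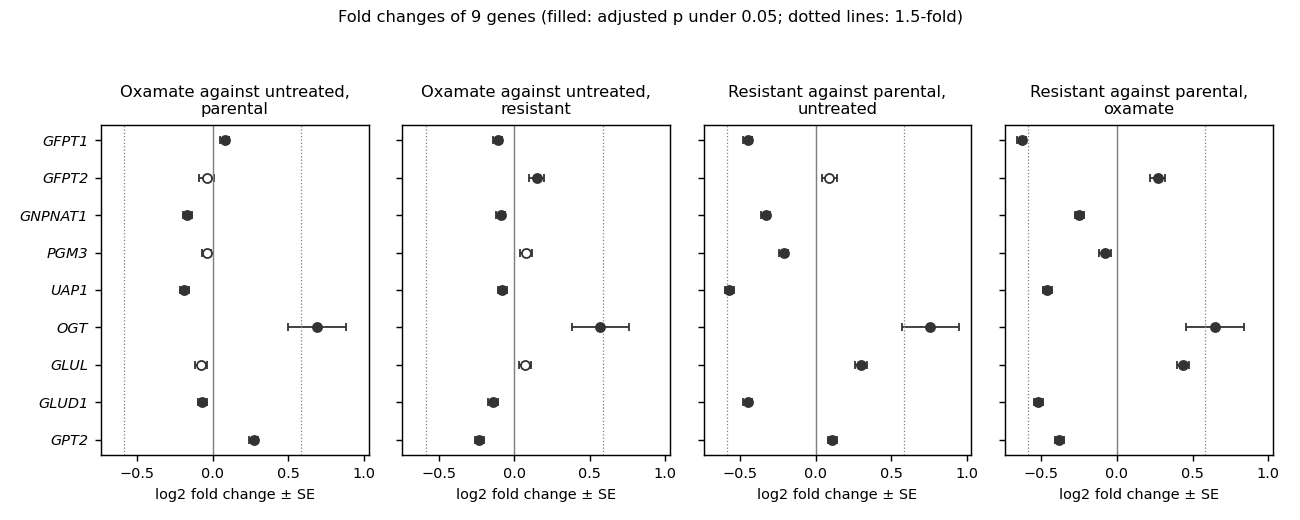
Log2 fold changes (horizontal axes) with their standard errors for the 9 genes in 4 comparisons, filled where the adjusted p was under 0.05, with dotted lines at 1.5-fold. The line comparisons at the right span -0.63 to 0.76, and among the oxamate comparisons at the left only OGT in parental cells passes a dotted line, with GPT2 at 0.27 in parental and -0.23 in resistant cells.

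GFPT1, the widely expressed form of the committed enzyme (ENSG00000198380.12, minus strand of chromosome 2, 69319769 to 69387254 in GENCODE 29 on GRCh38), was lower in resistant cells. It measured 88.5, 93.5 and 93.5 CPM in untreated parental libraries and 66.5, 67.0 and 67.6 CPM in untreated resistant ones, and with oxamate 94.1, 100.0 and 96.0 CPM in parental and 62.7, 61.0 and 63.4 CPM in resistant libraries. No resistant library came near a parental one. The log2 fold change between the lines was -0.45 ± 0.03 (SE, adjusted p = 1.32e-09) without oxamate and -0.63 ± 0.03 (adjusted p = 1.44e-11) with it. The response of GFPT1 to oxamate was 0.08 ± 0.03 in parental cells (adjusted p = 0.0382) and -0.11 ± 0.03 in resistant cells (adjusted p = 0.0261), and the responses differed by -0.18 ± 0.04 (adjusted p = 0.0028). With library size alone these 3 values were 0.00 (adjusted p = 0.995), -0.07 (0.126) and -0.07 (0.2), and DESeq2 lost the parental call (0.0612). Over the 12 libraries INSIG1 was among the 2 genes whose log2 CPM followed GFPT1 most closely, with a Pearson r of 0.996, a value that shares the 2 lines and their depths.

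GFPT2, the paralog of the same step (ENSG00000131459.12, minus strand of chromosome 5, 180300690 to 180353387), was the scarcer form and went the other way between the oxamate-treated lines. The 3 libraries measured 16.0, 17.1 and 17.1 CPM in untreated parental cells, 15.7, 17.0 and 16.3 CPM in parental cells with oxamate, 17.6, 18.0 and 17.8 CPM in untreated resistant cells and 18.8, 20.8 and 19.5 CPM in resistant cells with oxamate. The parental groups overlap each other, and the untreated and then the treated resistant libraries stand above them. Between the lines the log2 fold change was 0.09 ± 0.05 without oxamate (adjusted p = 0.0952) and 0.27 ± 0.05 with it (adjusted p = 6.62e-05). The untreated difference passed with upper-quartile factors (0.16, adjusted p = 0.00436), library size alone (0.31, 2.71e-05) and a mean count of at least 25 (0.11, 0.0432). Oxamate raised GFPT2 by 0.15 ± 0.05 in resistant cells (adjusted p = 0.0364), the value in parental cells was -0.04 ± 0.05 (adjusted p = 0.516), and the responses differed by 0.18 ± 0.07 (adjusted p = 0.0332). DESeq2 lost the resistant call (adjusted p = 0.0736) and that of the difference (0.0685). Without a filter on low counts the resistant call was lost too (0.0552).

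The balance of the 2 forms does not depend on the scaling of libraries, since both counts come from the same library. GFPT2 reached 0.183 of GFPT1's count in untreated parental cells, 0.169 in parental cells with oxamate, 0.265 in untreated resistant cells and 0.315 in resistant cells with oxamate (means of 3). On the log2 scale the ratio was 0.54 higher in resistant cells without oxamate and 0.90 higher with it, the difference with oxamate was -0.11 in parental and 0.25 in resistant cells, and in all 4 comparisons the libraries of the groups did not overlap. An exact two-sided permutation test gave p = 0.1 for each, the smallest that 3 against 3 libraries allow, so it cannot reach 0.05. These ratios compare counts and not molecules, because the genes differ in length.

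GNPNAT1, the acetyltransferase that follows (ENSG00000100522.9, chromosome 14, 52775194 to 52791668, minus strand), was lower in resistant cells, except with oxamate under library size alone (0.07), and fell with oxamate in both lines. It measured 69.4, 73.7 and 74.7 CPM in untreated and 64.8, 65.7 and 63.6 CPM in oxamate-treated parental libraries, and 58.1, 57.9 and 57.5 CPM in untreated and 53.5, 55.0 and 54.2 CPM in oxamate-treated resistant libraries. None of the 4 groups overlaps another. The log2 fold change between the lines was -0.33 ± 0.03 without oxamate (adjusted p = 4.66e-08) and -0.25 ± 0.03 with it (adjusted p = 9.33e-07), and the fall with oxamate was -0.17 ± 0.03 in parental (adjusted p = 0.00014) and -0.09 ± 0.03 in resistant cells (adjusted p = 0.0397).

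PGM3, the mutase that moves the phosphate of GlcNAc (ENSG00000013375.15, chromosome 6, 83161150 to 83193936, minus strand), was lower in untreated resistant than in untreated parental cells on this scale. It measured 45.3, 47.4 and 49.1 CPM, then 47.2, 45.9 and 44.1 CPM with oxamate in parental cells, and 42.0, 40.0 and 40.6 CPM, then 43.4, 42.7 and 43.5 CPM with oxamate in resistant cells. The parental groups overlap each other, and with oxamate the lines are less than 1 CPM apart at their nearest libraries. The line difference was -0.21 ± 0.03 (adjusted p = 5.21e-05) without and -0.08 ± 0.04 (adjusted p = 0.0447) with oxamate, which turned to 0.01 and 0.24 with library size alone, and neither oxamate response passed the test (adjusted p = 0.278 in parental and 0.121 in resistant cells).

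UAP1, the pyrophosphorylase that makes UDP-GlcNAc (ENSG00000117143.13, chromosome 1, 162561506 to 162599842, plus strand), was the most abundant hexosamine mRNA and had the largest drop of the pathway without oxamate. It measured 326.4, 326.0 and 336.9 CPM in untreated parental cells and 224.2, 222.6 and 217.5 CPM in untreated resistant cells, a log2 fold change of -0.57 ± 0.03 (adjusted p = 1.21e-11). With oxamate the parental libraries measured 292.9, 292.2 and 280.7 CPM and the resistant ones 212.8, 209.3 and 205.6 CPM, a log2 fold change of -0.46 ± 0.03 (adjusted p = 8.18e-11). Every group stood apart from the others. UAP1 fell with oxamate, with log2 fold changes of -0.19 ± 0.03 in parental (adjusted p = 9.27e-06) and -0.08 ± 0.03 in resistant cells (adjusted p = 0.0351), and the responses differed by 0.11 ± 0.04 (adjusted p = 0.0219).

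OGT, the transferase that attaches O-GlcNAc to proteins (ENSG00000147162.13, chromosome X, 71533083 to 71575897, plus strand), was higher in resistant cells and higher with oxamate in each line. It measured 49.3, 56.2 and 54.2 CPM in untreated parental libraries, 66.1, 67.5 and 122.0 CPM in parental libraries with oxamate, 78.4, 76.0 and 116.1 CPM in untreated resistant libraries and 134.6, 123.8 and 144.1 CPM in resistant libraries with oxamate. Replicate 3 of the oxamate-treated parental group and replicate 3 of the untreated resistant group lie far above the other two of their group. The log2 fold changes were 0.69 ± 0.19 with oxamate in parental cells (adjusted p = 0.00593), 0.57 ± 0.19 with oxamate in resistant cells (adjusted p = 0.0402), 0.76 ± 0.19 between the untreated lines (adjusted p = 0.00202) and 0.65 ± 0.19 between the treated lines (adjusted p = 0.00507). The oxamate responses of the lines differed by -0.11 ± 0.27 (adjusted p = 0.76), an estimate with a 95% interval from -0.64 to 0.41.

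OGT followed the RNAs that stay in the nucleus. MALAT1, NEAT1 and KCNQ1OT1, long noncoding RNAs known to be retained there, summed to 319.0 to 355.5 CPM in untreated parental libraries. In replicates 1 and 2 of the oxamate-treated parental group they summed to 553.8 and 541.3 CPM and in replicate 3 to 1179 CPM, and in the untreated resistant group to 578.2 and 530.0 CPM against 1104 CPM in replicate 3. The oxamate-treated resistant libraries held 1072 to 1395 CPM. The libraries highest in OGT were thus the ones highest in these RNAs, and the part of that RNA in the OGT differences was not tested. The genes whose log2 CPM was most like that of OGT over the 12 libraries were USP32P1 (Pearson r 0.992) and the noncoding RNA MIAT (r 0.988), and GENCODE annotates 5 of the 11 OGT transcripts as retaining an intron. Such transcripts are also annotated for GFPT2 (3 of 8), UAP1 (2 of 7), GPT2 (2 of 5), PGM3 (2 of 15) and GNPNAT1 (1 of 6). Without replicate 3 of the oxamate-treated parental group, OGT rose by 0.33 ± 0.13 with oxamate in parental cells (adjusted p = 0.0357) and the treated lines differed by 1.00 ± 0.13. Without replicate 3 of the untreated resistant group, the untreated lines differed by 0.54 ± 0.19 (adjusted p = 0.017) and oxamate raised OGT by 0.80 ± 0.19 in resistant cells (adjusted p = 0.0076). With both left out, the 4 values were 0.33 ± 0.06, 0.80 ± 0.05, 0.54 ± 0.05 and 1.00 ± 0.06, and the oxamate response was larger in resistant cells by 0.47 ± 0.08, the opposite direction to that of all 12 libraries. Both libraries are also the highest in OGT of their groups, so their removal itself narrows the spread, and these values are a description and not a test. With a block for the replicate number, OGT's rise with oxamate in resistant cells was 0.60 ± 0.12 (adjusted p = 0.0028) and passed 1.5-fold.

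**Figure D3:**
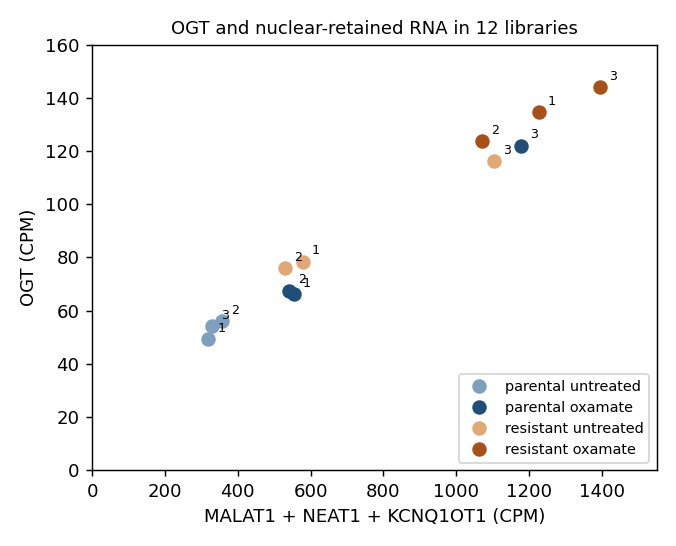
OGT in CPM (vertical axis) against the summed CPM of MALAT1, NEAT1 and KCNQ1OT1 (horizontal axis), 1 point for each of the 12 libraries, numbered by replicate within its group. The oxamate-treated parental and untreated resistant groups each have replicate 3, at 1179 and 1104 CPM on the horizontal axis, among the oxamate-treated resistant libraries.

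OGA, the hydrolase that removes O-GlcNAc, was higher in resistant cells and lower with oxamate in parental cells. It lay between 207.5 and 213.1 CPM in untreated and between 177.0 and 198.1 CPM in oxamate-treated parental libraries, and between 264.6 and 286.7 CPM and between 284.1 and 299.2 CPM in the same groups of resistant cells. Replicate 3 held the highest OGA value of the oxamate-treated parental group and of the untreated resistant group. OGA fell by 0.18 on the log2 scale with oxamate in parental cells (adjusted p = 0.00118), measured 0.10 ± 0.04 in resistant cells (adjusted p = 0.103) and was higher in resistant cells by 0.37 ± 0.04 (adjusted p = 4.15e-07) without and 0.65 ± 0.04 (adjusted p = 3.34e-10) with oxamate. The log2 ratio of OGT to OGA counts was 0.36 higher in untreated resistant than in untreated parental libraries, which did not overlap. With oxamate it differed by 0.06 and the libraries overlapped (exact two-sided permutation test, p = 1.0). The treated ratios ran from -1.42 to -0.70 in parental and from -1.22 to -1.05 in resistant libraries. The highest was that of parental replicate 3, the library high in OGT, and the other treated parental libraries lay below all treated resistant ones.

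GLUL, glutamine synthetase (ENSG00000135821.18, chromosome 1, 182381704 to 182392206, minus strand), was low and was higher in resistant cells. It measured 15.0, 15.6 and 15.2 CPM in untreated parental libraries against 18.7, 19.1 and 18.6 CPM in untreated resistant ones, and with oxamate 15.2, 14.1 and 14.1 CPM against 19.3, 19.9 and 19.7 CPM. All resistant libraries exceed all parental ones. The log2 fold change between the lines was 0.30 ± 0.04 (adjusted p = 2.85e-06) without and 0.44 ± 0.04 (adjusted p = 3.26e-08) with oxamate. The oxamate response was -0.08 ± 0.04 in parental (adjusted p = 0.11) and 0.07 ± 0.04 in resistant cells (adjusted p = 0.244), and the responses differed by 0.14 ± 0.06 (adjusted p = 0.049).

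GLUD1, glutamate dehydrogenase (ENSG00000148672.8, chromosome 10, 87050486 to 87094866, minus strand), was the most abundant of the 9 mRNAs and was lower in resistant cells. The libraries measured 453.5, 449.5 and 468.2 CPM in untreated and 445.5, 444.8 and 417.3 CPM in treated parental cells, and 331.7, 340.9 and 333.3 CPM in untreated and 303.6, 303.5 and 302.8 CPM in treated resistant cells. No group overlaps another. The difference between the lines was -0.45 ± 0.03 (adjusted p = 5.64e-10) without and -0.52 ± 0.03 (adjusted p = 4.33e-11) with oxamate on the log2 scale, and GLUD1 fell by 0.07 with oxamate in parental (adjusted p = 0.0424) and by 0.14 in resistant cells (adjusted p = 0.00219). Its near-identical copy GLUD2 shares sequence with it, and 13.6% of the 100-base windows of GLUD1 occur in another transcript, so a part of its reads is assigned by estimate.

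GPT2, the mitochondrial alanine aminotransferase (ENSG00000166123.13, chromosome 16, 46884378 to 46931297, plus strand), responded to oxamate in opposite directions in the 2 lines. It rose from 61.4, 60.5 and 60.6 CPM to 74.8, 72.3 and 72.7 CPM in parental cells and fell from 64.2, 67.7 and 65.8 CPM to 56.2, 56.1 and 56.1 CPM in resistant cells. The 2 groups of each line were separate, and the treated resistant libraries were the lowest of all 12. The log2 fold change was 0.27 ± 0.03 in parental (adjusted p = 3.2e-07) and -0.23 ± 0.03 in resistant cells (adjusted p = 3.39e-05), and the difference, -0.50 ± 0.04 (adjusted p = 6.14e-08), was the largest among the 9 genes. Resistant cells were higher by 0.11 ± 0.03 without oxamate (adjusted p = 0.000842) and lower by -0.38 ± 0.03 with it (adjusted p = 1.2e-09). With library size alone these line differences were 0.33 and -0.06. GPT, the cytosolic form, was below 1 CPM in every library, from 0.264 to 0.289 CPM in untreated and 0.533 to 0.855 CPM in treated parental cells, a rise of 1.26 ± 0.28 (adjusted p = 0.00099), while its value in resistant cells was 0.62 ± 0.28 (adjusted p = 0.129). In treated parental cells GPT measured 0.536, 0.533 and 0.855 CPM, so replicate 3 stood highest.

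Across the 9 genes, oxamate changed 6 in parental cells, 3 up (GFPT1, OGT and GPT2) and 3 down (GNPNAT1, UAP1 and GLUD1). The background was 58.7% of all genes, 28.3% higher and 30.4% lower. In resistant cells it changed 7, with GFPT2 and OGT up and GFPT1, GNPNAT1, UAP1, GLUD1 and GPT2 down, where 21.5% of all genes changed, 9.01% higher and 12.5% lower. OGT was the only member called over 1.5-fold with oxamate, in parental cells, where 9.88% of all genes passed, and none was in resistant cells, where 2.5% did. The treated and untreated libraries did not overlap for 6 of the 9 genes in parental cells, against 61.5% of all genes, and for 9 of 9 in resistant cells, against 41%. The response differed between the lines for 5 of the 9 (GFPT1, GFPT2, UAP1, GLUL and GPT2), beside 44.2% of all genes, and for none by over 1.5-fold, beside 8.48%. The median log2 fold change of the 9 was -0.04 with oxamate in parental and -0.08 in resistant cells, beside 0.003 and -0.000 for all genes.

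Several calls near the threshold were lost when 1 library was left out. In resistant cells, the call of GFPT1 was lost without any 1 of untreated replicates 1, 2 and 3 and treated replicates 1 and 2 (-0.11 to -0.09, adjusted p 0.0567 to 0.0967), and that of GFPT2 without any 1 of untreated replicates 1, 2 and 3 and treated replicates 2 and 3 (0.11 to 0.15, adjusted p 0.0671 to 0.159). GNPNAT1 lost it without any 1 of the 6 resistant libraries or without untreated parental replicate 2 (0.0518 to 0.122), UAP1 without untreated replicates 1 or 2 or treated replicates 2 or 3 (0.081 to 0.136), and OGT without untreated replicates 1 or 2, any treated replicate, or untreated parental replicates 1 or 2 (0.46 to 0.63, adjusted p 0.0506 to 0.163). OGT's call in resistant cells was also lost with library size alone (adjusted p = 0.0511) and with DESeq2 (adjusted p = 0.113). GLUD1 and GPT2 kept theirs in all 12 leave-outs. In parental cells, GFPT1 lost its call without untreated replicate 1, treated replicate 2, untreated resistant replicate 1 or treated resistant replicate 1 (0.05 to 0.08, adjusted p 0.0503 to 0.18) and GLUD1 without untreated replicates 1 or 3, treated replicate 3, untreated resistant replicate 1 or any treated resistant replicate (-0.07 to -0.04, adjusted p 0.0512 to 0.219). For the difference of responses, GPT2 and GFPT1 kept their calls in all 12 leave-outs, GLUL lost its call in all but the ones without untreated or treated parental replicate 1 (0.0589 to 0.115), GFPT2 without untreated parental replicates 2 or 3, treated parental replicates 1 or 3, untreated resistant replicates 1 or 3 or treated resistant replicate 2 (0.0503 to 0.102), and UAP1 without untreated parental replicate 3, treated parental replicate 3 or treated resistant replicate 1 (0.0512 to 0.0619). PGM3 lost its line difference under oxamate without untreated parental replicate 2, treated parental replicates 1 or 2, untreated resistant replicate 3 or any treated resistant replicate (0.0532 to 0.182). Other leave-outs brought a call. GNPNAT1's difference of responses passed without untreated parental replicate 1 (0.0252), PGM3's without untreated parental, treated parental or untreated resistant replicate 1 (0.0144 to 0.0428), GLUD1's without treated parental replicate 3 (0.015), and GLUL's parental response without treated parental replicate 1 (0.0395).

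The line comparisons also depended on how libraries are scaled. TMM factors lay between 0.8783 and 0.9369 in parental and between 1.078 and 1.117 in resistant libraries. With library size alone, the median over all genes moved to 0.244 without and 0.339 with oxamate, and the 9 genes moved with it. GFPT1 then measured -0.23 and -0.31, UAP1 -0.36 and -0.14 and GLUD1 -0.23 and -0.20 without and with oxamate, all below 0 and farther below that median. PGM3 turned to 0.01 and 0.24 and GNPNAT1 to 0.07 with oxamate. OGT (0.98 and 0.97) and GLUL (0.52 and 0.76) were above 0 and above the median under this scaling too. GFPT2 measured 0.31 and 0.59 and GPT2 0.33 and -0.06.

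**Figure D4:**
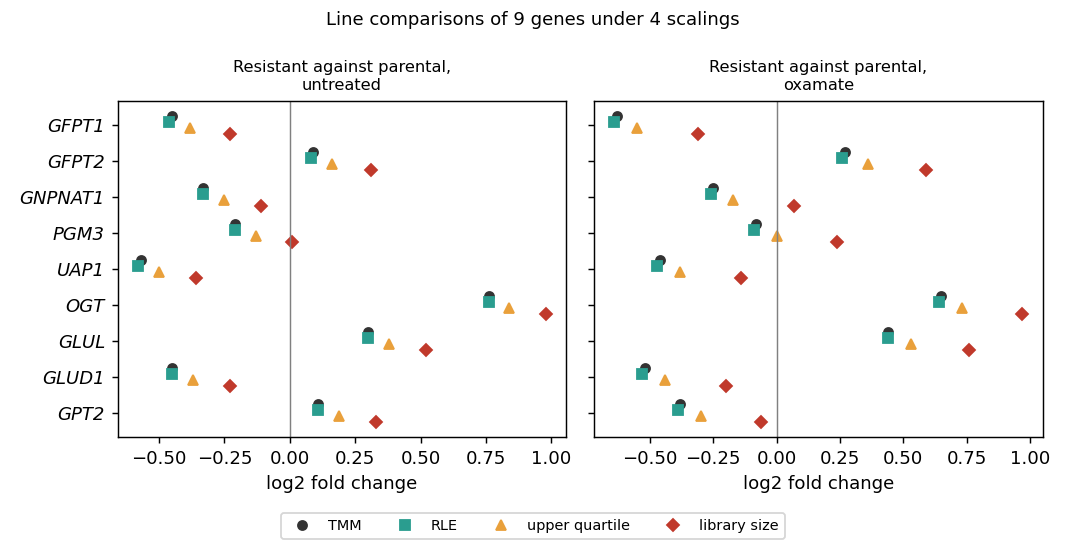
Log2 fold change between resistant and parental cells (horizontal axes) of the 9 genes without oxamate (left) and with it (right) under 4 scalings of the libraries. Library size alone shifts every gene to the right, which takes PGM3 to 0.01 and 0.24 and GNPNAT1 to 0.07 with oxamate, while GFPT1, UAP1 and GLUD1 are below 0 and OGT and GLUL above 0 under all 4.

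Divided by the length of the merged exons, the order in untreated parental cells was GLUD1 with 129.9 ± 2.80 CPM per kilobase (SD, n = 3), UAP1 with 95.9 ± 1.80, GNPNAT1 with 18.1 ± 0.699, GFPT1 with 10.4 ± 0.327, GPT2 with 9.58 ± 0.0755, PGM3 with 6.44 ± 0.259, OGT with 5.43 ± 0.365, GFPT2 with 3.51 ± 0.132 and GLUL with 1.69 ± 0.0332. No neighbours overlapped in that group. In treated resistant cells OGT stood at 13.7 ± 1.04 CPM per kilobase, where its libraries overlapped those of GNPNAT1 at 13.5 ± 0.180, GFPT1 had dropped to 7.03 ± 0.136, and GLUD1 and UAP1 led with 86.2 ± 0.121 and 60.9 ± 1.03. GFPT2 and GLUL were last in every group. GFPT1 exceeded GFPT2 per kilobase in all 4 groups. The order depended in part on the length used. Per kilobase of the longest transcript, GPT2 (14.4) stood above GFPT1 (10.6) in untreated parental cells. In treated resistant cells OGT then measured 18.5, GNPNAT1 14.1, GFPT1 7.16 and GFPT2 6.36.

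The other genes of these pathways were taken in 6 lists of 63 genes, of which 58 passed the filter and RENBP, HAS1, HAS2, GLS2 and TAT did not. Oxamate raised 14 and lowered 26 of the 58 in parental cells and raised 3 and lowered 21 in resistant cells, where 9.01% and 12.5% of all genes rose and fell and where library size alone gave 5 and 14. In parental cells 28.3% of all genes rose and 30.4% fell. Between the lines, 22 were higher and 27 lower in resistant cells without oxamate, where 38.4% of all genes were higher and 37.3% lower. With oxamate 19 were higher and 27 lower, where all genes gave 40.6% and 39.7%. With library size alone these splits became 31 higher and 14 lower and 36 higher and 14 lower. The medians of the 58 log2 fold changes were -0.03, -0.07, 0.07 and -0.07 in that order, beside 0.003, -0.000, 0.025 and 0.015 over all genes.

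**Figure D5:**
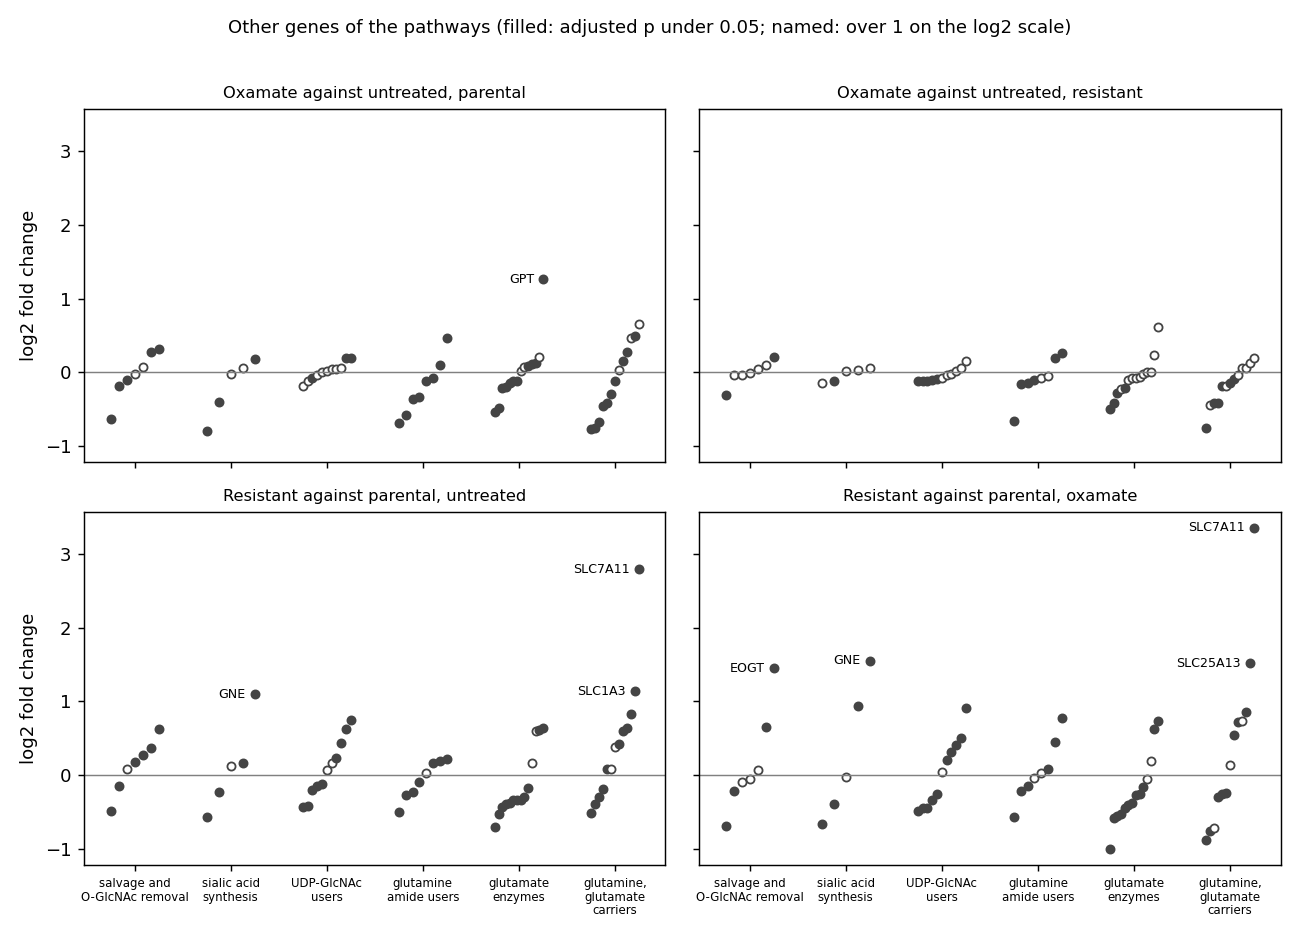
Log2 fold changes (vertical axes) of the 58 tested pathway genes by list in 4 comparisons, 1 point per gene, filled where the adjusted p was under 0.05, with names where a called change exceeds 1 on the log2 scale. SLC7A11 stands highest in both line comparisons, at 2.79 and 3.35, and the glutamate enzymes lie mostly below 0 there.

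Among the genes tested in the salvage and sialic acid lists, GNE and EOGT had the largest log2 fold changes in both line comparisons. The list of amino sugar salvage and O-GlcNAc removal also holds genes such as OGA and EOGT that do not encode salvage enzymes. Of its 7 genes tested, 4 were higher and 2 lower in untreated resistant cells, beside 38.4% and 37.3% of all genes. OGA and EOGT were among the higher ones, so these counts do not describe salvage alone. With oxamate the 2 higher ones were OGA and EOGT, and 2 were lower, beside 40.6% and 39.7%. GNPDA1, a deaminase that returns glucosamine-6-phosphate to fructose-6-phosphate, was lower by -0.49 ± 0.02 (adjusted p = 3.3e-11) and -0.69 ± 0.02 (adjusted p = 3.24e-13). EOGT, which attaches O-GlcNAc in the endoplasmic reticulum, measured 3.98 to 4.05 CPM in untreated and 2.30 to 2.90 CPM in treated parental libraries, and 5.91 to 6.45 CPM and 6.95 to 7.26 CPM in the same groups of resistant cells. It fell by 0.63 with oxamate in parental cells and rose by 0.21 in resistant cells (adjusted p = 0.0465), a call lost without any 1 of the untreated parental or treated resistant replicates or without untreated resistant replicate 1 or 2 (0.0524 to 0.165). DESeq2 (adjusted p = 0.126) and the fit without a filter on low counts (0.0778) lost this EOGT call too. Of 5 sialic acid genes, 2 were higher and 2 lower in resistant cells in both comparisons, beside the same shares of all genes. GNE, the enzyme that commits UDP-GlcNAc to sialic acid, measured 49.4 to 50.1 CPM in untreated parental libraries against 104.7 to 107.8 CPM in untreated resistant ones, a difference of 1.10 ± 0.03 (adjusted p = 5.37e-15), and it was 1.55 ± 0.03 higher with oxamate (adjusted p = 9.4e-17). GNE and the phosphatase NANP fell with oxamate in parental cells, by 0.40 and 0.79, and measured 0.06 (adjusted p = 0.112) and 0.03 (adjusted p = 0.768) in resistant cells. NANS, the synthase between them, was lower in resistant cells, by -0.57 ± 0.04 and -0.66 ± 0.04.

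Of 11 UDP-GlcNAc users tested, 4 were higher and 5 lower in untreated resistant cells, beside 38.4% and 37.3% of all genes. With oxamate 5 were higher and 5 lower, beside 40.6% and 39.7%. The N-acetylglucosaminyltransferase genes MGAT4A and MGAT3 were higher by 0.75 ± 0.09 and 0.63 ± 0.06 without oxamate. DPAGT1, which begins the lipid-linked oligosaccharide, was lower by -0.43 ± 0.03 and -0.49 ± 0.03. MGAT5 was lower by -0.12 ± 0.03 and -0.25 ± 0.03, which turned to 0.10 and 0.07 with library size alone. SLC35A3, a Golgi UDP-GlcNAc transporter, rose by 0.19 with oxamate in parental cells and fell by 0.11 in resistant cells, a call lost without any 1 of the untreated resistant replicates or treated replicates 1 or 3 (0.0501 to 0.111), and MGAT4B rose by 0.19 in parental cells and measured -0.02 in resistant cells (adjusted p = 0.641).

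Of 8 genes for enzymes that, like GFPT1, take the amide of glutamine, 6 fell and 2 rose with oxamate in parental cells, beside 30.4% and 28.3% of all genes, and 4 fell and 2 rose in resistant cells, beside 12.5% and 9.01%. ASNS, asparagine synthetase, measured 71.6 to 72.9 CPM in untreated and 46.6 to 49.2 CPM in treated parental libraries and 80.2 to 82.4 CPM and 50.3 to 52.0 CPM in the same groups of resistant cells, a fall of -0.58 ± 0.03 (adjusted p = 1.76e-10) and -0.66 ± 0.03 (adjusted p = 4.79e-10). CTPS1, which makes CTP, fell by 0.69 in parental and by 0.15 in resistant cells, and PFAS, of purine synthesis, fell by 0.33 in parental and rose by 0.26 in resistant cells, the latter call lost without untreated resistant replicate 1 or 2 or treated resistant replicate 1 or 3 (0.0663 to 0.143). PFAS measured 18.8, 18.0 and 22.7 CPM in treated parental and 26.4, 26.8 and 32.5 CPM in untreated resistant libraries. The highest of each group was replicate 3, the library also high in OGT. PPAT, the committed enzyme of purine synthesis, was lower in resistant cells by -0.50 ± 0.03 without and -0.57 ± 0.03 with oxamate.

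Of 14 glutamate enzyme genes tested beside the members, 10 were lower and 2 higher in resistant cells, both without and with oxamate, where 37.3% and 39.7% of all genes were lower. With library size alone GOT1 turned in both (0.04 and 0.07), and GOT2 (0.06) and KYAT3 (0.16) turned with oxamate, genes named after their values were seen. The 2 higher ones were PSAT1, of serine synthesis, higher by 0.64 ± 0.03 (adjusted p = 8.83e-12) and 0.62 ± 0.03 (adjusted p = 9.68e-12), and the branched-chain aminotransferase BCAT1, higher by 0.61 ± 0.08 and 0.74 ± 0.09. Both fell with oxamate in both lines, PSAT1 by 0.48 and 0.49 and BCAT1 by 0.54 and 0.41 in parental and resistant cells. ALDH18A1, of proline synthesis, was lower by -0.37 ± 0.03 and -0.52 ± 0.03. GLUD2 was at 0.561 to 1.73 CPM, lower in resistant cells by -0.70 ± 0.28 without oxamate (adjusted p = 0.0326) and lower with it too (0.561 to 0.727 CPM against 0.638 to 1.73 CPM, adjusted p = 0.00626). The call without oxamate was lost when untreated parental replicate 1 or 3 or untreated resistant replicate 2 or 3 was left out (0.0644 to 0.128). With library size alone GLUD2 lost both line calls (adjusted p = 0.133 without and 0.053 with oxamate). Upper-quartile factors lost the GLUD2 call without oxamate (0.0554). Its reads cannot be fully told from those of GLUD1.

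Of 13 carrier genes, 7 were higher and 4 lower in untreated resistant cells, beside 38.4% and 37.3% of all genes. With oxamate 5 were higher and 5 lower, beside 40.6% and 39.7%. SLC7A11, the cystine and glutamate antiporter, measured 1.89 to 2.12 CPM in untreated and 1.01 to 1.42 CPM in treated parental libraries against 13.3 to 14.8 CPM and 12.0 to 12.4 CPM in resistant ones, differences of 2.79 ± 0.08 (adjusted p = 6.32e-14) and 3.35 ± 0.09 (adjusted p = 2.19e-14). Its partner subunit SLC3A2 was lower in resistant cells, by -0.18 ± 0.03, which turned to 0.04 with library size alone, and by -0.75 ± 0.03 with oxamate, and SLC7A5, which also pairs with SLC3A2, was higher by 0.83 ± 0.03 and 0.55 ± 0.03 and fell with oxamate by 0.46 in parental and by 0.75 in resistant cells. The glutamine carrier SLC38A1 was higher by 0.60 ± 0.03 and 0.86 ± 0.04. The mitochondrial glutamate carriers went different ways. SLC25A22 was lower by -0.51 ± 0.03 and -0.88 ± 0.03, and SLC25A13, the aspartate-glutamate exchanger, measured 12.8 to 13.2 CPM and 7.02 to 8.10 CPM in untreated and treated parental libraries and 19.9 to 20.5 CPM and 21.5 to 22.8 CPM in resistant ones, differences between the lines of 0.64 ± 0.04 and 1.52 ± 0.05. SLC1A3 and SLC25A18 were at 0.450 CPM or less in every library. SLC1A3 was higher by 1.14 ± 0.39 in untreated resistant cells (adjusted p = 0.0155, 0.113 without untreated resistant replicate 2 and 0.056 with DESeq2). SLC25A18 fell by 0.67 with oxamate in parental cells (adjusted p = 0.0197, and 0.0519 to 0.0665 without untreated replicate 3, treated replicate 1 or treated replicate 3) and was higher by 0.72 ± 0.24 in treated resistant than in treated parental cells (adjusted p = 0.0138, and 0.068 without treated resistant replicate 3). DESeq2 lost both SLC25A18 calls (adjusted p = 0.114 and 0.0856).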

How the data were processed

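Total RNA from the 12 samples was sequenced as poly(A)-selected libraries. The authors aligned reads with Bowtie2 2.1.0 to the UCSC transcript models and deposited RSEM 1.2.15 expected counts for 26475 gene symbols, without normalization, on build hg38 in the submitters' processing notes. RSEM splits reads that match several transcripts, so 11.6% of the deposited expected counts are not whole and genes with near-identical copies are uncertain. Oligo(dT) selection and mapping to transcripts can count intron-retaining isoforms as the gene. The dose and duration of oxamate for these RNA samples are not given in the sources used here.

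Expected counts were rounded. Genes were filtered with filterByExpr, which left 14582 of them, and 6562 symbols were 0 throughout. TMM normalization and edgeR 4.0.16 quasi-likelihood tests on the 4 group means (R 4.3.3) used all 12 samples, with Benjamini-Hochberg adjustment over all genes tested. Changes were called at an adjusted p under 0.05, and separately at the authors' threshold, p under 0.05 and over 1.5-fold. The response difference was a contrast of the same fit. DESeq2 1.42.0, limma-voom (limma 3.58.1), other scalings and filters, a replicate block, fits on 6 samples and leave-outs were alternatives. Simulated data held 14392 genes, of which 200 were changed. For the parental response 188 of these 200 were recovered with 4 false calls, and for the difference 169 with 10. In the real data 58.7% of genes tested were called for the parental response and 44.2% for the difference. The simulation held a far smaller share of changed genes, so its counts do not give the error rate of the calls reported. Floors cover counting error only, while standard errors and the interval come from the fit. Ratios within a library were tested with exact permutation tests (SciPy 1.17.1), over 5 ratios and 20 comparisons, some not reported here, without adjustment since p cannot go below 0.1. Coordinates and lengths came from GENCODE 29 and promoters from RefSeq.

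The members and lists were chosen with earlier results of these data known. Named were all 9 members, each list gene over 1.5-fold in any comparison, the called gene of each list with the smallest p per comparison, the 2 genes most correlated with each member called over 1.5-fold, and MALAT1, OGA and GPT as context, with NEAT1, KCNQ1OT1 and the marker genes from lists. OGA was found under its older symbol MGEA5. No column of another sample was present.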

Additional observations from a re-analysis of the deposited data

Results flagged for a closer look

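Among the 9 members and the 29 pathway genes named, the oxamate response differed between resistant and parental cells for 22 (a contrast of the edgeR fit, adjusted p under 0.05). The difference is given as resistant minus parental on the log2 scale. The pathway genes were named partly for their p-values and fold changes in this contrast, which can raise that count. Among the 9 members, GPT2 differed by -0.50 (adjusted p = 6.14e-08), GFPT1 by -0.18 (0.0028), GFPT2 by 0.18 (0.0332), UAP1 by 0.11 (0.0219) and GLUL by 0.14 (0.049). GPT2 changed in opposite directions in the lines, and so did GFPT1, although with library size alone its responses were 0.00 (adjusted p = 0.995) and -0.07 (0.126) and their difference -0.07 (0.2). UAP1 fell in both lines, and neither response of GLUL passed the test on its own.

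In the salvage and sialic acid lists, EOGT differed by 0.84 (adjusted p = 1.19e-05), NANP by 0.82 (1.76e-06), GNE by 0.45 (1.3e-07), OGA by 0.28 (0.000948) and GNPDA1 by -0.20 (0.000184). Each of EOGT, NANP, GNE and OGA fell with oxamate in parental cells, and EOGT rose in resistant cells by 0.21 (adjusted p = 0.0465), a call lost without untreated resistant replicate 2 (0.165) among others. Among the UDP-GlcNAc users, SLC35A3 differed by -0.30 (6.33e-05), MGAT4B by -0.20 (7.98e-05) and MGAT5 by -0.13 (0.00689).

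Among the glutamine genes, PFAS differed by 0.59 (adjusted p = 0.000574), CTPS1 by 0.53 (5.32e-07) and ALDH18A1 by -0.15 (0.0042). Among the carriers, SLC25A13 differed by 0.89 (7.15e-08), SLC7A11 by 0.57 (0.00223), SLC38A1 by 0.26 (0.00048), SLC7A5 by -0.29 (1.25e-05), SLC25A22 by -0.37 (2.94e-06) and SLC3A2 by -0.57 (2.23e-08). SLC25A13, the gene with the largest difference here, fell by 0.76 in parental cells and measured 0.13 in resistant cells (adjusted p = 0.0571). The difference passed the test for 44.2% of all genes, for 5 of the 9 members and for 29 of all 58 pathway genes tested, named or not.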

How the results depend on the processing

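In 540 values for the 9 members with 1 library left out, 466 kept direction and side of the threshold, 66 lost the call, 6 gained one and 2 turned, and in 486 values under other settings 433 kept both, 35 lost, 12 gained and 6 turned. For 108 called results of the named pathway genes, 1236 of 1296 values with 1 library left out kept both and 60 lost the call, and under other settings 1120 of 1167 kept both, 42 lost the call and 5 turned. For oxamate in resistant cells, 7 members were called against 4 with upper-quartile factors and 4 with library size alone (2 to 7 with 1 library left out), and 1 member passed 1.5-fold with upper-quartile factors, library size alone, limma-voom, the replicate block or oxamate-treated parental replicate 3 and untreated resistant replicate 3 both left out, an alternative chosen after seeing the data (0 to 1 with 1 left out). All genes over 1.5-fold there numbered 365, against 209 with a mean count of at least 25, 231 with DESeq2 and 597 without those 2 libraries (282 to 570 with 1 left out), and all genes changed ranged from 1795 to 3889 around 3139. Members over 1.5-fold ranged from 0 to 1 for oxamate in parental cells and for the untreated lines, each 0 without those 2 libraries, and from 1 to 2 for the treated lines, where upper-quartile factors gave 1. For the difference of responses, 5 members were called against 3 with DESeq2 (2 to 7 with 1 left out), and 4 other pathway genes passed 1.5-fold against 7 with library size alone. Turned values were PGM3 with upper-quartile factors (0.00) and library size alone (0.24) between the treated lines, and with library size alone PGM3 (0.01) between the untreated lines, GNPNAT1 (0.07) between the treated lines and GLUD1 (0.03) for the difference. Pathway genes that turned with library size alone were SLC35A3 (0.07), MGAT5 (0.10), CTPS1 (0.13) and SLC3A2 (0.04) between the untreated lines and MGAT5 (0.07) between the treated lines. OGT's difference turned to 0.24 without oxamate-treated parental replicate 3, 0.11 without untreated resistant replicate 3 and 0.47 without both, and ranged from -0.27 to 0.24 with 1 library left out. The cause of these changes was not tested. With library size alone, genes changed split into 8540 higher and 2769 lower between the untreated lines (5602 and 5436 with TMM), 9133 and 2819 between the treated lines (5923 and 5785), 2853 and 5922 for oxamate in parental cells (4124 and 4439), 1753 and 1179 in resistant cells (1314 and 1825) and 5050 and 1756 for the difference (3313 and 3125), and members into 4 and 4, 5 and 4, 2 and 5, 2 and 2, and 5 and 1.

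The replicate numbers were not taken as pairs: over 18 same-numbered pairs the correlation of deviations ran from -0.28 to 0.44, with 9 above 0.1, and 3 of 12 samples correlated best with their own number. With the replicate block the members called were 6, 7, 9, 8 and 4 for oxamate in parental and resistant cells, the untreated and treated lines, and the difference, and all genes called in resistant cells were 3750. Among untreated and treated resistant libraries alone, the same-numbered correlations were 0.112, 0.223 and 0.44. With the block OGT's log2 fold change in resistant cells was 0.60 (adjusted p = 0.0028), GFPT2 gained a call between the untreated lines (0.0471), and PGM3 between the treated lines (0.0527) and GLUL's difference (0.0586) lost theirs. SLC1A3, SLC25A18 and GPT lay below 1 CPM, so their values rest on few counts, and the part of depth in them was not tested.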
